A study of Mus musculus with 6 samples.

Results

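The transcription factors that specify and maintain midbrain dopamine neurons were followed as 10 genes: Nr4a2, Pitx3, En1, En2, Lmx1a, Lmx1b, Foxa1, Foxa2, Otx2 and Sox6. They were taken by symbol from a table of 19251 genes. All 10 had a row there, and all 10 passed the filter on low counts that left 19109 genes for testing. Substantia nigra of C57BL/6 mice was profiled by RNA-seq of polyA RNA, with 3 libraries from mice on intermittent fasting and 3 from mice fed ad libitum. Fasting mice went without food for 24 hours on 3 days a week for 10 weeks, starting 2 weeks after surgery, and ad libitum mice were moved between cages at the same times. Mice of both diets carried rAAV-A53T-aSynuclein, a recombinant adeno-associated virus that delivers the A53T form of alpha-synuclein, so no library shows the diet without the vector. Nothing in the sources used here gives the promoter that drives the transgene, the side of the brain taken, the age of the mice, or how long after a fast the tissue was collected.

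In the mouse embryo, Foxa1, Foxa2, Lmx1a, Lmx1b and Otx2 pattern the midbrain floor plate and its dopamine progenitors. Nr4a2, Pitx3 and the engrailed genes En1 and En2 then switch on the dopamine program in the newborn neurons and help to keep the adult neurons alive. The effector genes of that program are Th, which encodes the rate-limiting enzyme of dopamine synthesis, Ddc, which encodes the next enzyme, Slc18a2, the vesicular monoamine transporter, and Slc6a3, the dopamine transporter. In adult mice Sox6 marks dopamine neurons of the substantia nigra pars compacta and Otx2 marks a part of those in the ventral tegmental area next to it.

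The proximal promoters of Nr4a2, Pitx3, En1 and their effector Th are shown because these genes carry the patterns described below. Each is the 250 bases before the annotated start, on the strand of the gene, from RefSeq on GRCm38.p6. They lie at chr2:57124004-57124253 on the minus strand for Nr4a2, chr19:46148326-46148575 on the minus strand for Pitx3, chr1:120602237-120602486 on the plus strand for En1 and chr7:142899996-142900245 on the minus strand for Th. Capitals mark the cAMP response element, TGACGTCA, a motif bound by CREB.
Nr4a2: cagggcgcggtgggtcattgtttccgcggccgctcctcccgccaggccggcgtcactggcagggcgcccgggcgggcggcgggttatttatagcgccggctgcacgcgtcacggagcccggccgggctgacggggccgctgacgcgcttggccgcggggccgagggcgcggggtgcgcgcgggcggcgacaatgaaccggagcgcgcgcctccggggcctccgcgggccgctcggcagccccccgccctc
Pitx3: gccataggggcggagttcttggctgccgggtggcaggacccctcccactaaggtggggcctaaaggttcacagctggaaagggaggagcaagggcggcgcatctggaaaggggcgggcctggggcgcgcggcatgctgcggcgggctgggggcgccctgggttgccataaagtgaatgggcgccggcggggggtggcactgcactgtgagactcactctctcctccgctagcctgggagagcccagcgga
En1: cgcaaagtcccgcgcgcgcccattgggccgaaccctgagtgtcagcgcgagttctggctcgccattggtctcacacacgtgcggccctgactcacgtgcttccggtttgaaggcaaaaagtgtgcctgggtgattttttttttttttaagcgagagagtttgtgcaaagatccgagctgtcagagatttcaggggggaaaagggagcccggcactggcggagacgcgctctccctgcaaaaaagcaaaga
Th: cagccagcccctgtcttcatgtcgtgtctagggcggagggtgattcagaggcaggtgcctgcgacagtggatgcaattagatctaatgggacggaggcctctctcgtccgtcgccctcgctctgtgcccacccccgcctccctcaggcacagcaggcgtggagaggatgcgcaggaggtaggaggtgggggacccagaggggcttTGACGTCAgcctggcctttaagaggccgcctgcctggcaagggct
The element lay 45 bases before the start of Th, and 1.55% of 32851 promoters of the same length in the table hold it. The windows of Nr4a2, Pitx3 and En1 held no such element, and none of the 4 windows shown held AAAGGTCA, the NBRE motif bound by Nr4a2 as a monomer (1.34% of promoters), TAATTA, a core of homeodomain motifs (4.84%), TAATCC, the bicoid type motif bound by Pitx3 and Otx2 (6.25%), or TGTTTAC, a forkhead motif (3.17%), on either strand. None of these motifs contains another. Nr4a2 had the highest share of G and C, 80.0%, against 68.8% for Pitx3, 56.0% for En1, 64.4% for Th and a median of 52.4% over all promoters in the table. Of the 10 genes, 9 matched an entry in that table by symbol. Elsewhere among the 9 genes, matches included NBRE 76 bases before the fifth listed start of Sox6, a forkhead motif 141 bases before the start of Foxa1, and 3 homeodomain cores before the second listed start of Otx2.

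Total counts ran from 42990234 to 48179706 per library. Levels are CPM, counts scaled to library size after TMM normalization. Changes are log2 of fasting over ad libitum, from the quasi-likelihood test of edgeR over all genes, with adjustment by Benjamini-Hochberg. The labelled tissue holds its defining markers: the geometric mean of Th, Slc6a3, Slc18a2 and Ddc was 128, 227 and 111 CPM in fasting libraries 1, 2 and 3 and 119, 126 and 317 CPM in ad libitum libraries 1, 2 and 3. Fasting library 2 and ad libitum library 3 were thus highest in these 4 genes, and the diets overlapped. The libraries also held RNA of neighbouring regions, in unequal amounts. The 8 hypothalamic markers summed to between 142 and 175 CPM under fasting and between 15.3 and 548 CPM ad libitum, and the 6 thalamic markers to between 938 and 1383 CPM under fasting and between 225 and 1358 CPM ad libitum. Of 8 oculomotor markers 5 had a row, and they summed to between 12.04 and 19.4 CPM under fasting and to 10.5, 95.1 and 10.5 CPM ad libitum, so ad libitum library 2 stood apart. In none of the 11 lists of markers of neighbouring regions and glia was a gene called by edgeR, where 0.497% of all tested genes were called. In bulk tissue, fewer cells of a type and less RNA per cell cannot be told apart.

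No factor passed the test for a diet effect. Of 10 members, 0 were called at an adjusted p below 0.05 by edgeR, where 0.497% of all tested genes were called, 95 in number. DESeq2 also called 0 of 10, where it called 7.26% of all genes, and limma-voom 0 of 10, against 0.167%. The count was again 0 with RLE size factors (0.44% of all genes called), no low count filter (0.421%), a mean count of at least 50 (0.533%), no robust shrinkage (0.0471%) and the replicate block (1.49%). It was also 0 without fasting library 2 (0.354%) and without ad libitum library 3 (0.00521%), and without fasting library 1 or 3, where 0 genes of the whole table were called. It was 1 without ad libitum library 1 (Sox6, with 6.18% of all genes called) and 1 without ad libitum library 2 (Lmx1a, with 0.235%). Log2 fold changes ran from -0.71 for En2 to 1.01 for Lmx1a, 5 above and 5 below 0, with a median of -0.12 against -0.0050 over all tested genes. Only Sox6 had an unadjusted p below 0.05, against 20.4% of all tested genes. It was also the only one of the 10 whose diets did not overlap, against 27.5% of all tested genes. The 95% intervals were wide, the widest running from -2.02 to 1.31 for En1.

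**Figure D1:**
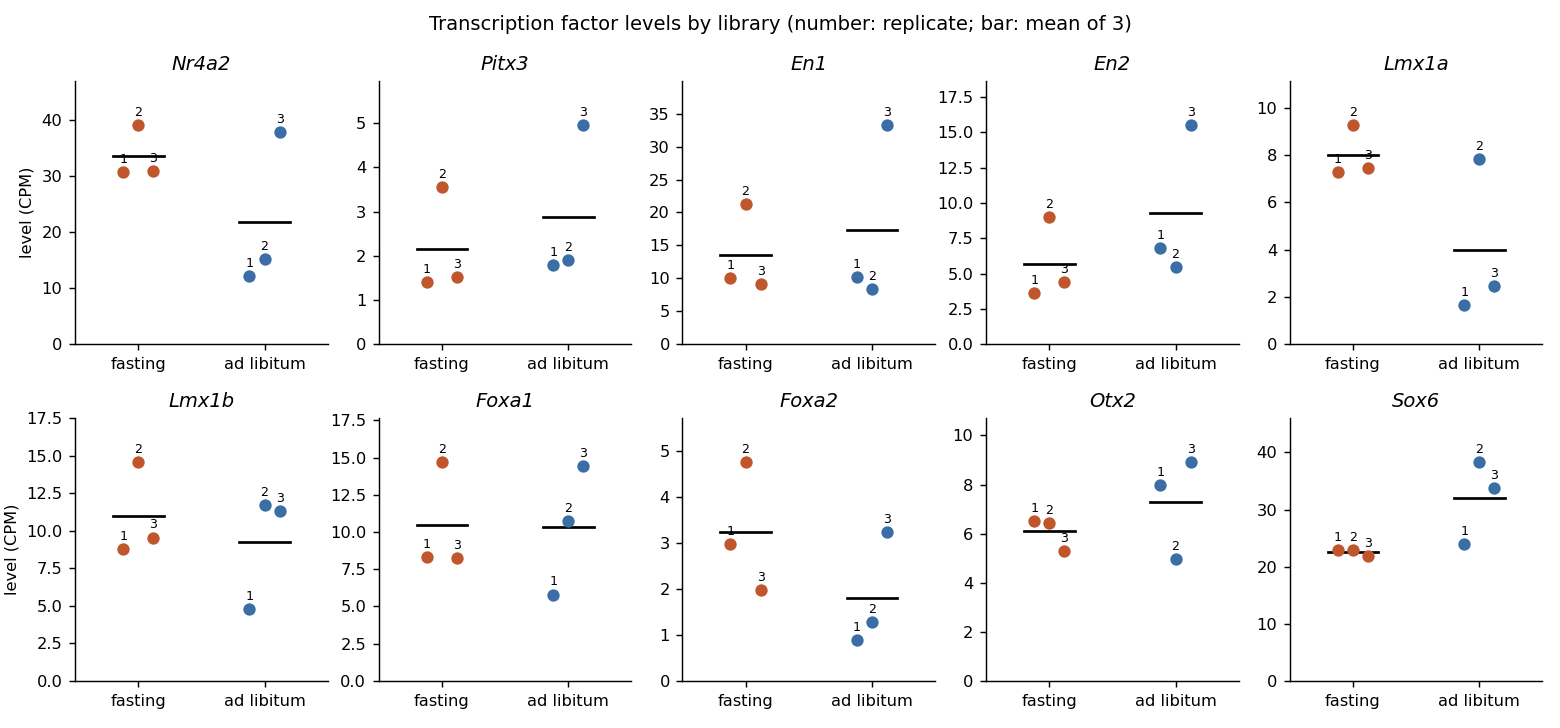
Level of each transcription factor in CPM (vertical axis, from 0) in the 3 fasting and 3 ad libitum libraries; points are libraries with their replicate number and bars are means. Fasting library 2 and ad libitum library 3 are the highest for Nr4a2, Pitx3, En1, En2, Foxa1 and Foxa2, and only Sox6 has no overlap between diets.

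Nr4a2 (ENSMUSG00000026826), an orphan nuclear receptor that turns on Th, Slc6a3 and Slc18a2, had 3 fasting libraries close together. It had 30.7, 39.1 and 30.8 CPM in fasting libraries 1, 2 and 3, against 12.2, 15.3 and 37.8 CPM in ad libitum libraries 1, 2 and 3. The 3 fasting libraries and ad libitum library 3 were high, and ad libitum libraries 1 and 2 were low, so the diets overlapped through 1 library. Nr4a2 averaged 33.5 ± 4.83 CPM under fasting and 21.7 ± 14.0 CPM ad libitum (SD, n = 3 each), a log2 difference of 0.63 with SE 0.46 and adjusted p = 0.503 by edgeR. The ad libitum libraries spanned 3.11-fold and the fasting libraries 1.27-fold. Without ad libitum library 1 or 2 the log2 difference was 0.34 or 0.42, and without ad libitum library 3 it was 1.29, with an adjusted p of 0.115 by edgeR.

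Pitx3 (ENSMUSG00000025229), a homeodomain factor on which survival of substantia nigra dopamine neurons depends in mice, rested on few counts. Pitx3 had 1.41, 3.56 and 1.51 CPM in fasting libraries 1, 2 and 3, from 62, 154 and 71 counts, against 1.80, 1.90 and 4.96 CPM in ad libitum libraries 1, 2 and 3, from 85, 92 and 232 counts. One library of each diet was high, fasting 2 and ad libitum 3, and the diets overlapped. The log2 fold change was -0.42 (standard error 0.55 and adjusted p = 0.709 by edgeR), and without ad libitum library 3 it was 0.22. On the other strand Pitx3 overlaps Elovl3, and the sources used here do not say whether counting used strand.

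The engrailed genes En1 and En2, homeodomain factors that keep midbrain dopamine neurons alive and are also expressed in hindbrain and cerebellum, showed the same order of libraries at the top. En1 (ENSMUSG00000058665) had 10.1, 21.3 and 9.17 CPM in fasting libraries 1, 2 and 3, against 10.2, 8.40 and 33.3 CPM in ad libitum libraries 1, 2 and 3. En2 (ENSMUSG00000039095) had 3.62, 8.99 and 4.41 CPM in the fasting libraries, against 6.80, 5.45 and 15.5 CPM in the ad libitum libraries. In both genes ad libitum library 3 was highest and fasting library 2 second, and diets overlapped. The log2 fold changes were -0.36 for En1 (standard error 0.66 and adjusted p = 0.800 by edgeR) and -0.71 for En2 (standard error 0.53 and adjusted p = 0.512 by edgeR), and En1 was at 0.54 without ad libitum library 3. En2 was at -0.11 without ad libitum library 3 and at -1.20 without fasting library 2. Pax5, a factor of the midbrain and hindbrain boundary, was at 2.87, 8.97 and 5.63 CPM under fasting and at 14.5, 1.57 and 51.0 CPM ad libitum, so it too was highest in ad libitum library 3. Its part in the values of En1 and En2 was not tested.

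The LIM homeodomain genes Lmx1a and Lmx1b are paralogs that set up the dopamine progenitors together. Lmx1a (ENSMUSG00000026686) had 7.30, 9.27 and 7.46 CPM in fasting libraries 1, 2 and 3, against 1.67, 7.83 and 2.46 CPM in ad libitum libraries 1, 2 and 3. All 3 fasting libraries and ad libitum library 2 were high, the other two ad libitum libraries were low, and the widest spread of any of the 10 factors, 5.54-fold from lowest to highest library, was that of Lmx1a. Lmx1a averaged 8.01 ± 1.09 CPM under fasting and 3.99 ± 3.35 CPM ad libitum (SD, n = 3 each), a log2 difference of 1.01 with SE 0.58 and adjusted p = 0.398 by edgeR. Without ad libitum library 2, the library with the high oculomotor and hypothalamic markers, Lmx1a passed, with a log2 difference of 1.95 and an adjusted p of 0.0400 by edgeR, in a fit that called 0.235% of genes. The libraries left in that fit also differed in the hypothalamic markers. These summed to 142, 171 and 175 CPM under fasting, against 35.8 and 15.3 CPM in ad libitum libraries 1 and 3. The same fit called 1 of 8 hypothalamic markers and 1 of 7 subthalamic and mammillary markers. The part of RNA from neighbouring regions in the Lmx1a call was not tested.

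Lmx1b (ENSMUSG00000038765), which serotonin neurons also express, had 8.80, 14.6 and 9.55 CPM in the fasting libraries, against 4.76, 11.7 and 11.3 CPM in the ad libitum libraries. Only ad libitum library 1 was low. The log2 fold change was 0.24 (standard error 0.39 and adjusted p = 0.760 by edgeR), and it was -0.07 without ad libitum library 1. The ratio of Lmx1a to Lmx1b, in CPM, was 0.829, 0.634 and 0.781 under fasting and 0.351, 0.667 and 0.217 ad libitum, so the paralogs did not keep a fixed proportion.

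The forkhead genes Foxa1 and Foxa2 encode pioneer factors of the floor plate that act together in dopamine neurons. Foxa2 (ENSMUSG00000037025) had 2.98, 4.76 and 1.98 CPM in fasting libraries 1, 2 and 3, from 131, 206 and 93 counts, against 0.889, 1.28 and 3.23 CPM in ad libitum libraries 1, 2 and 3, from 42, 62 and 151 counts. As for Nr4a2, the fasting libraries lay above ad libitum libraries 1 and 2 and overlapped with the third. Foxa2 averaged 3.24 ± 1.41 CPM under fasting and 1.80 ± 1.25 CPM ad libitum (SD, n = 3 each), a log2 difference of 0.85 with SE 0.55 and adjusted p = 0.445 by edgeR. It was 0.46 without fasting library 2 and 1.57 without ad libitum library 3.

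Foxa1 (ENSMUSG00000035451) had 8.35, 14.7 and 8.25 CPM under fasting, against 5.80, 10.7 and 14.4 CPM ad libitum. Means of 10.4 ± 3.71 CPM under fasting and 10.3 ± 4.32 CPM ad libitum (SD, n = 3 each) gave a log2 difference of 0.02 with SE 0.39 and adjusted p = 0.983 by edgeR, with a 95% interval from -0.95 to 0.99. Foxa1 and Foxa2 share 0.243% and 0.338% of their transcript sequence with each other, in words of 31 bases, the whole of what each shares with any gene.

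Otx2 and Sox6 mark different dopamine neurons in the adult mouse. Otx2 (ENSMUSG00000021848), a homeodomain factor of the ventral tegmental area and of the anterior brain in development, had 6.53, 6.45 and 5.29 CPM in the fasting libraries, against 7.98, 4.98 and 8.93 CPM in the ad libitum libraries. Ad libitum library 2 was lowest, and the fasting libraries lay within the ad libitum range. The log2 fold change was -0.26 (standard error 0.22 and adjusted p = 0.552 by edgeR). Otx2 overlaps Gm49154 on its own strand and Otx2os1 on the other.

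Sox6 (ENSMUSG00000051910), a factor of the SoxD group, had 22.9, 22.9 and 21.9 CPM in fasting libraries 1, 2 and 3, against 24.0, 38.4 and 33.7 CPM in ad libitum libraries 1, 2 and 3. Every fasting library was below every ad libitum library, by a narrow gap to ad libitum library 1. Sox6 averaged 22.6 ± 0.588 CPM under fasting and 32.0 ± 7.36 CPM ad libitum (SD, n = 3 each), a log2 difference of -0.50 with SE 0.16, unadjusted p = 0.0200 and adjusted p = 0.165 by edgeR. With DESeq2 the adjusted p was 0.0512, over adjusted values from 0.0152 to 0.401 among the alternatives. Without ad libitum library 1, Sox6 fell by 0.68 on the log2 scale (edgeR adjusted p = 0.0152), in a fit that called 6.18% of genes. Sox6os overlaps Sox6 on the other strand.

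**Figure D2:**
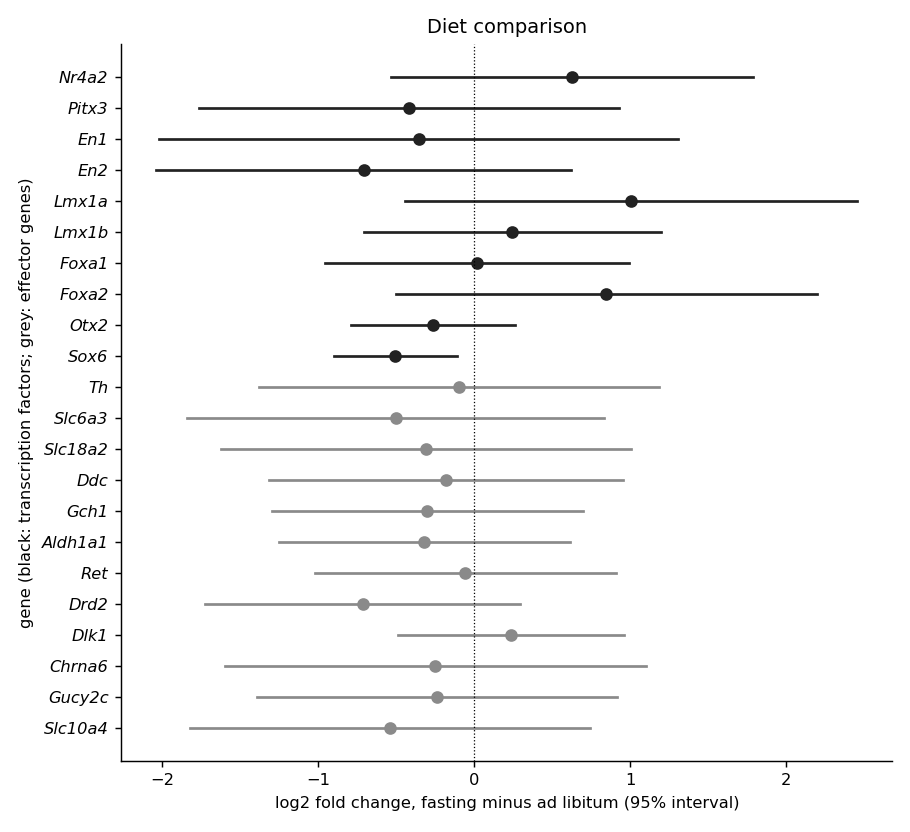
Log2 fold change of fasting minus ad libitum (horizontal axis) with its 95% interval for the 10 transcription factors (black) and 12 dopamine effector genes (grey). The interval of Sox6 alone lies on one side of 0, from -0.90 to -0.11, before adjustment over all genes.

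Per kilobase of transcript, Nr4a2 had the highest level of the 10 in each fasting library and the highest of none in the ad libitum libraries, where Otx2 led in library 1, Sox6 in library 2 and En1 in library 3. Nr4a2 averaged 10.7 ± 1.54 CPM per kb under fasting and 6.95 ± 4.47 CPM per kb ad libitum (SD, n = 3 each). Next came En1, at 5.15 under fasting and 6.59 ad libitum, and Sox6, at 4.74 under fasting and 6.72 ad libitum, as mean CPM per kb. Otx2 followed at 4.16 under fasting and 4.99 ad libitum. Under fasting the order went on with Lmx1b at 3.54, Foxa1 at 3.27, Pitx3 at 2.53, Lmx1a at 2.45, Foxa2 at 1.92 and En2 at 1.60 mean CPM per kb. Ad libitum it went on with Pitx3 at 3.38, Foxa1 at 3.23, Lmx1b at 2.99, En2 at 2.62, Lmx1a at 1.22 and Foxa2 at 1.07 mean CPM per kb. Within a diet, neighbours in these orders had overlapping ranges over the libraries, with exceptions under fasting only. There Nr4a2, at 9.81 to 12.5 CPM per kb, lay above En1, at 3.49 to 8.11, and Sox6, at 4.59 to 4.81, lay above Otx2, at 3.62 to 4.46.

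The libraries differed in dopamine effector RNA, and Pitx3 and En1 had profiles close to those of Slc6a3 and Th. Fasting library 2 and ad libitum library 3 were the highest pair for 6 of the 10 factors and for 11 of 12 dopamine effector genes, against 4.98% of all tested genes. The likeness of library profiles was measured as a root mean square distance between log2 CPM over the 6 libraries, centred and scaled for each gene, where 0 is the same pattern, and ranked among 15552 other genes with a mean of at least 1 CPM. For Pitx3, Slc6a3 ranked 12th at a distance of 0.20 and En2 32nd at 0.26. For En1, Th ranked 15th at 0.18 and Slc6a3 26th at 0.24. For En2, Pitx3 ranked 23rd at 0.26, Slc6a3 52nd at 0.30 and Th 375th at 0.52. For Foxa1, Th ranked 218th at 0.49. The closest genes of all were Cracr2a, Glra3 and Cadps2 for Pitx3, Lin7a, Chrna5 and Morf4l1 for En1, and Tmem218, Kctd9 and Dmac2l for En2. The 6 libraries are the same for every gene, so these ranks are descriptions with no test.

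**Figure D3:**
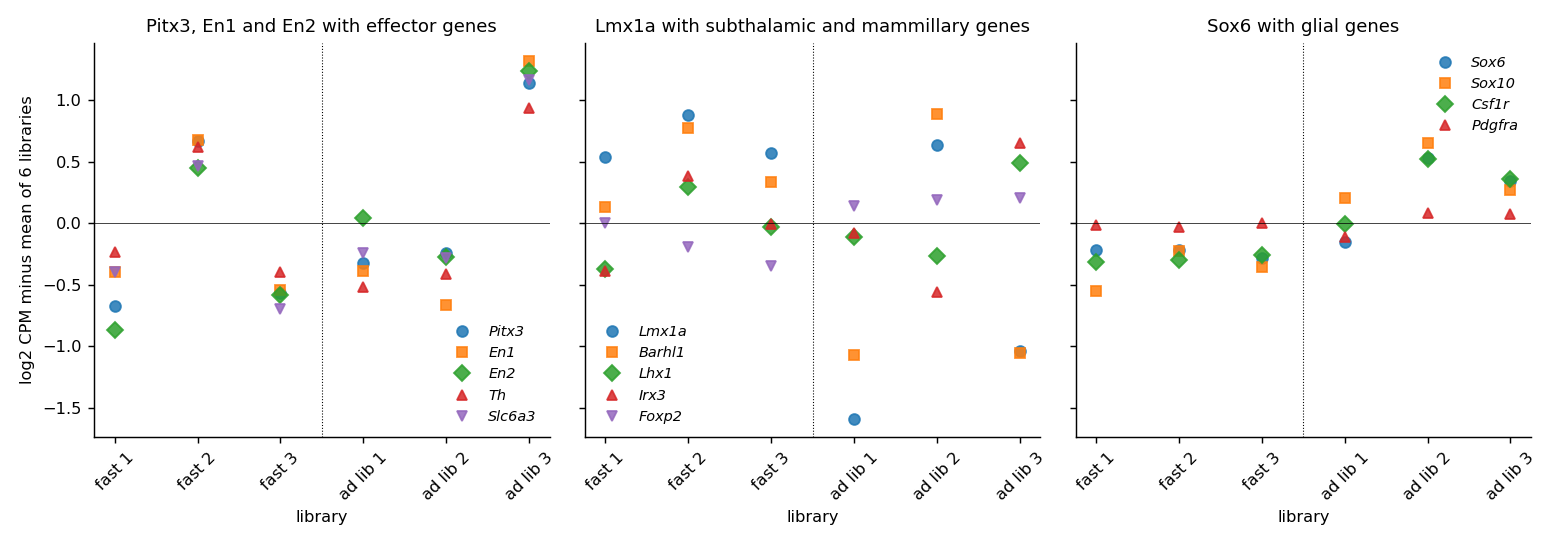
Log2 CPM minus the mean of 6 libraries (vertical axis) for each fasting and ad libitum library (horizontal axis). Pitx3, En1 and En2 peak with Th and Slc6a3 in fasting library 2 and ad libitum library 3, Lmx1a is low with Barhl1, but not with Lhx1, Irx3 or Foxp2, in ad libitum libraries 1 and 3, and Sox6 lies nearer to Csf1r than to Pdgfra, which hardly varies.

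Relative to the dopamine effector genes of the same library, Pitx3 had nearly equal values ad libitum. Those values rest on 85, 92 and 232 counts of Pitx3, too few to resolve so narrow a spread. Under fasting the log2 ratio had an SD of 0.23. Its level was 1.10%, 1.57% and 1.37% of the geometric mean of Th, Slc6a3, Slc18a2 and Ddc in fasting libraries 1, 2 and 3, and 1.51%, 1.51% and 1.56% in ad libitum libraries 1, 2 and 3, although Pitx3 itself spanned 2.76-fold over the ad libitum libraries. En1 was at 7.91%, 9.39% and 8.29% in the fasting libraries, against 8.55%, 6.70% and 10.5% in the ad libitum libraries. Tests used log2 ratios with 0.1 CPM added to each gene. The log2 ratio differed by 0.01 for En1 (SE 0.20, exact permutation p = 1.0) and by -0.18 for Pitx3 (SE 0.13, exact permutation p = 0.4). Over the 6 libraries the log2 ratio spanned 0.45 for Pitx3 and 0.64 for En1, while their own log2 levels spanned 1.74 and 1.97. For Pitx3 the result depended on the denominator. With Th alone the difference was -0.36, lower in every fasting library (exact permutation p = 0.1). With Slc6a3 alone it was 0.05 and the diets overlapped.

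Nr4a2 and Foxa2 were higher relative to the effector genes in every fasting library, though neither followed those genes closely. For Nr4a2, Th ranked 1037th in likeness at a distance of 0.68 and Slc6a3 3097th at 0.95. For Foxa2, Th ranked 596th at 0.61 and Slc6a3 2254th at 0.88. These ratios do not measure RNA per dopamine neuron. Nr4a2 stood at 24.0%, 17.3% and 27.9% of the effector level in fasting libraries 1, 2 and 3, against 10.2%, 12.2% and 11.9% in ad libitum libraries 1, 2 and 3. The mean log2 ratio was -2.14 ± 0.35 under fasting and -3.13 ± 0.14 ad libitum (SD, n = 3 each), a difference of 0.98 (SE 0.22) or 1.98-fold. Foxa2 stood at 2.33%, 2.10% and 1.79% under fasting, against 0.746%, 1.02% and 1.02% ad libitum, a difference of 1.11 on the log2 scale (SE 0.16) or 2.17-fold. En2 was lower in every fasting library, at 2.82%, 3.97% and 3.99%, against 5.70%, 4.34% and 4.90% ad libitum, a difference of -0.47 (SE 0.20). For each of these 3 factors the exact two-sided permutation p was 0.1, the smallest that 3 against 3 libraries allow, and 0.333 after adjustment over the 10 factors, so the design cannot bring any of them past the threshold.

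The ratios of 3 of 10 factors thus did not overlap between diets, against 0.848% of all tested genes set against the same effector genes. In the higher direction it was 2 of 10, against 0.502%. The effector level itself was highest in fasting library 2 and ad libitum library 3, so the ratio of a gene that does not follow it tends to overlap. By CPM alone 27.5% of all tested genes did not overlap, so the low shares for ratios do not measure an excess among the factors. With Th or Slc6a3 alone as the denominator the difference was 0.80 or 1.22 for Nr4a2 and 0.93 or 1.35 for Foxa2, and neither factor overlapped. En2 overlapped with Slc6a3 alone, at -0.24, and with all 12 effector genes, at -0.46. Nr4a2 and Foxa2 also had like profiles: for Foxa2, Nr4a2 ranked 42nd at a distance of 0.30, and for Nr4a2, Foxa2 ranked 56th. The closest genes were Grb10, Pdzrn4 and Rchy1 for Nr4a2 and Aida, Ssbp1 and Clcn5 for Foxa2.

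**Figure D4:**
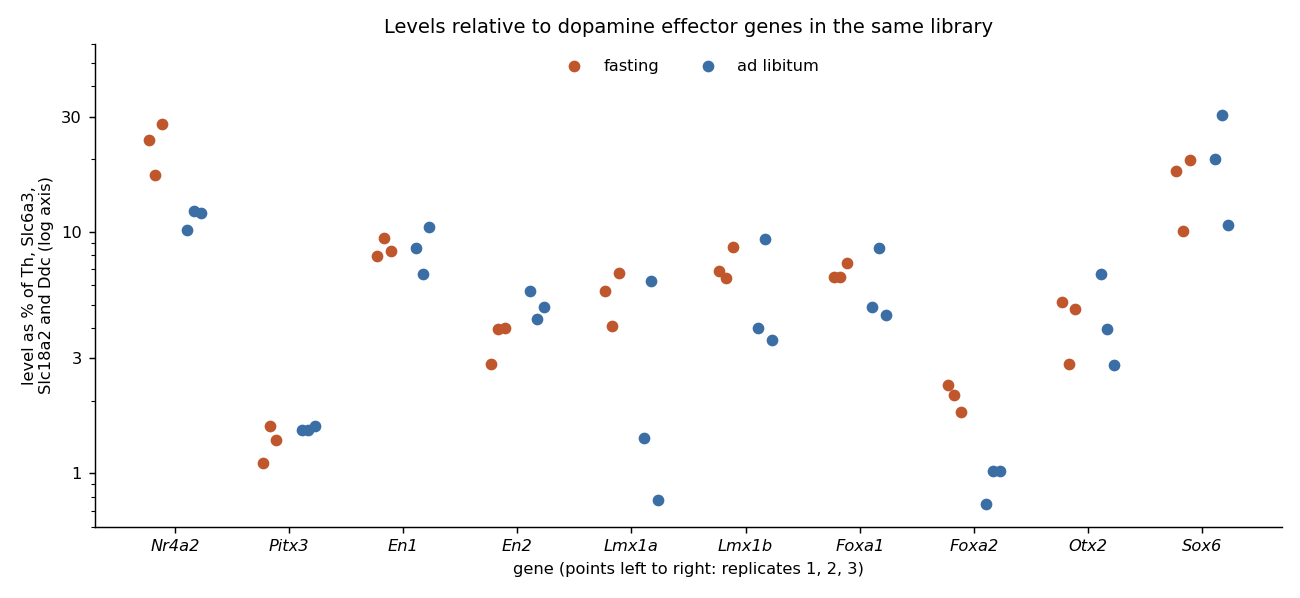
Level of each factor as a percentage of the geometric mean of Th, Slc6a3, Slc18a2 and Ddc in the same library (log axis), with fasting points left of ad libitum points and replicates 1, 2 and 3 from left to right. Nr4a2 and Foxa2 are higher and En2 is lower in all fasting libraries. The 3 ad libitum points of Pitx3 lie between 1.51% and 1.56%, closer than its 85, 92 and 232 counts can resolve.

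Lmx1a followed the effector genes still less. Lmx1a was at 5.70%, 4.09% and 6.75% of the effector level under fasting and at 1.403%, 6.24% and 0.775% ad libitum, so ad libitum library 2 was with the fasting libraries. In likeness to Lmx1a, Th ranked 8061st, at a distance of 1.34. Barhl1, a homeodomain factor of subthalamic and mammillary neurons, was at 2.77, 4.32 and 3.20 CPM under fasting and at 1.21, 4.69 and 1.22 CPM ad libitum, low in the same 2 libraries as Lmx1a. The ratio of Lmx1a to Barhl1, a pair chosen after its values were seen, stayed between 1.39 and 2.63 while Lmx1a spanned 5.54-fold. Other markers of the same list went another way: Lhx1, Lhx5 and Irx3 were highest in ad libitum library 3, at 14.8, 9.30 and 12.9 CPM, and Foxp2 was at 47.6, 41.6 and 37.4 CPM under fasting and at 52.2, 54.0 and 54.7 CPM ad libitum. All 7 subthalamic and mammillary markers had a row and none was at 0. They summed to between 95.8 and 115 CPM under fasting and between 86.3 and 114 CPM ad libitum, and the part of such RNA in the values of Lmx1a was not tested. The closest genes to Lmx1a were Itpk1, Sin3a and Pnma1.

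The profile of Sox6 was nearer to that of Sox10 than to those of Slc6a3 and Th, a comparison chosen after the values were seen. For Sox6, Sox10, a factor of the whole oligodendrocyte lineage, ranked 1120th at a distance of 0.47, while Slc6a3 ranked 5352nd at 1.01 and Th 6649th. The 6 markers of oligodendrocyte precursors, cells that also express Sox6, summed to between 265 and 290 CPM under fasting and between 342 and 421 CPM ad libitum, with none at 0. None of these 6 markers passed the test of edgeR, where 0.497% of all tested genes did. Of the 6, 4 had an unadjusted p below 0.05, against 20.4% of all tested genes, and DESeq2 called 4, against 7.26%. All 6 were below 0, from -0.76 for Sox10 to -0.03 for Pdgfra, the growth factor receptor that defines precursors. The 5 microglial markers summed to between 150 and 154 CPM under fasting and between 181 and 268 CPM ad libitum, and 0 of 5 passed by edgeR. All 5 had an unadjusted p below 0.05 (20.4% of all tested genes) with no overlap between diets (27.5%), and DESeq2 called 5 of 5 (7.26%). The part of glial RNA in the values of Sox6 was not tested. Closest to Sox6 were Gm12394, Npepl1 and Noct.

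Foxa1, Lmx1b and Otx2 fell between these patterns. Foxa1 and Lmx1b were close to each other, at a distance of 0.38. The closest genes were Ephb6, Hscb and Ankrd6 for Foxa1 and C1d, Vsig10l and Gemin4 for Lmx1b. Otx2 was closest to Mto1, Smim10l1 and Zfp719. As shares of the effector level, Foxa1 was at 6.52%, 6.50% and 7.46% under fasting and 4.87%, 8.54% and 4.54% ad libitum, and the diets overlapped in the ratios of Foxa1, Lmx1b and Otx2.

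The dopamine effector genes showed no diet effect that passed. Of 12, 0 were called by edgeR (0.497% of all tested genes) or DESeq2 (7.26%) and 0 had an unadjusted p below 0.05 (20.4%). Among them 11 were below 0 and 1 above, with a median of -0.27 against -0.0050 over all tested genes. Th averaged 129 ± 52.4 CPM under fasting and 138 ± 84.8 CPM ad libitum (SD, n = 3 each), a log2 difference of -0.10 with SE 0.51 and adjusted p = 0.933 by edgeR. Slc6a3 averaged 268 ± 118 CPM under fasting and 380 ± 237 CPM ad libitum (SD, n = 3 each), a log2 difference of -0.50 with SE 0.53 and adjusted p = 0.641 by edgeR. Aldh1a1, an enzyme of ventral nigral dopamine neurons and a target of Pitx3, shares 5.70% of its sequence with Aldh1a7 and was at -0.32, Ret, the receptor of GDNF, at -0.06, and Drd2, the dopamine autoreceptor, at -0.71. Dlk1, the only one above 0, was at 0.24. The same 2 libraries were highest in all of these but Drd2.

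Of 21 other genes of midbrain patterning and dopamine neuron development, 19 were tested and 0 were called by edgeR, 7 had an unadjusted p below 0.05, and DESeq2 called 4, where the shares of all tested genes were 0.497%, 20.4% and 7.26%. There were 4 above and 15 below 0, with a median of -0.29. Ebf3, a factor of the early B cell factor family, came nearest on the higher side, with 37.2, 49.98 and 39.4 CPM in the fasting libraries, against 24.9, 27.4 and 30.9 CPM in the ad libitum libraries, and a log2 difference of 0.61 with SE 0.13 and adjusted p = 0.0798 by edgeR. Nkx6-1, a homeodomain factor of the ventral midbrain, was scarce, at 1.46, 1.69 and 1.22 CPM under fasting against 0.275, 0.165 and 0.791 CPM ad libitum, a log2 difference of 1.82 with SE 0.52 and adjusted p = 0.128 by edgeR. On the lower side Zeb2 was at -0.69 (edgeR adjusted p = 0.0708), Nkx2-2 at -0.52 (edgeR adjusted p = 0.0708) and Shh, the floor plate signal, at -0.29 (edgeR adjusted p = 0.200). Zeb2 and Nkx2-2 are also expressed in the oligodendrocyte lineage, whose markers are given above. Wnt5a, a signal for dopamine neuron differentiation, was at 0.25 (edgeR adjusted p = 0.240).

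Partners of Nr4a2 showed no call. Of 8 partner genes 0 were called by edgeR (0.497% of all tested genes) or DESeq2 (7.26%) and 0 had an unadjusted p below 0.05 (20.4%). Their median was 0.0061, with 4 above and 4 below 0. Rxra, which encodes a retinoid X receptor that pairs with Nr4a2, was at 0.02 (SE 0.07) and Sfpq at -0.01 (SE 0.06). Rxrg, another retinoid X receptor, was at 6.23, 7.01 and 7.33 CPM under fasting and at 3.20, 20.4 and 4.96 CPM ad libitum, where ad libitum library 2 stood apart.

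Nr4a1 and Nr4a3 are the paralogs of Nr4a2 and are induced by neuronal activity. Nr4a1 had 13.3, 10.0 and 13.3 CPM in the fasting libraries, against 15.8, 18.4 and 14.7 CPM in the ad libitum libraries, a log2 difference of -0.42 with SE 0.14 and adjusted p = 0.157 by edgeR. Nr4a3 was at 0.13 (standard error 0.37 and adjusted p = 0.874 by edgeR). Of the 10 genes in this list, Nr4a1 and Nr4a3 with 8 immediate early genes, 1 fell and none rose by edgeR, where 0.497% of all tested genes were called. DESeq2 called 2, Arc and Junb, against 7.26% of all genes. Arc fell by 0.82 on the log2 scale (standard error 0.11 and adjusted p = 0.0422 by edgeR), with 15.2, 15.0 and 18.0 CPM under fasting against 31.9, 28.3 and 25.3 CPM ad libitum. That call was lost with limma-voom, without robust shrinkage, with the replicate block and without each library other than ad libitum 1. Fos was at 0.25, Npas4 at 0.01 and Junb at -0.65 (edgeR adjusted p = 0.0685), and the list median was -0.09.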

How the data were processed

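Polyadenylated RNA of 6 substantia nigra libraries was sequenced, 3 per diet. Per the labels' protocols, the RNeasy Lipid Tissue Mini Kit gave total RNA and a directional NEBNext Ultra II kit the libraries. The deposited table holds the authors' estimated counts, 1 row per gene, as whole numbers with no scaling across libraries. GRCm39 (mm39), Salmon and DESeq2 1.40.2 are named in the submitters' processing notes, without their role or order, and neither an annotation release nor a strand setting is stated there.

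The members and gene lists were chosen with earlier results of these data known. The filterByExpr function of edgeR 4.0.16 (R 4.3.3) left 142 genes untested. Counts were scaled with TMM and compared by the robust quasi-likelihood test with Benjamini-Hochberg adjustment over all genes. Standard errors are the size of the log2 fold change over the square root of F. DESeq2 1.42.0 and limma 3.58.1 were alternatives. Ratio tests used log2(CPM + 0.1), and percentages of the effector level had nothing added. Transcript lengths and shared sequence came from GENCODE M21, which is on GRCm38 and not on the build of the counts, with the mean length over protein-coding transcripts. Named genes were the members, the effector, developmental, partner and Nr4a lists, the leading genes of each marker list and the 3 genes most like each member. Total counts were similar, so the spread between libraries set the precision. The labels do not say that libraries came from separate animals, so p-values measure the spread between these samples. All pairs of libraries differed by more than counting noise (chi-square over degrees of freedom at least 8.28 within a diet). Some genes of the lists are not reported here by name.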

Additional observations from a re-analysis of the deposited data

How the results depend on the processing

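The count of factors called was 0 in the fit of all libraries, with DESeq2, limma-voom, other size factors, no filter, a mean count of at least 50, no robust shrinkage and the replicate block, and 0 to 1 when 1 library was left out (Lmx1a without ad libitum replicate 2, Sox6 without ad libitum replicate 1). The log2 fold changes of Nr4a2, Foxa2, Lmx1a, En2, Otx2 and Sox6 kept their sign under all 13 alternatives, with ranges when 1 library was left out of 0.34 to 1.29, 0.46 to 1.57, 0.64 to 1.95, -1.20 to -0.11, -0.48 to -0.090 and -0.68 to -0.36 in that order. Those of the others changed sign when 1 library was left out, with ranges of -0.98 to 0.22 for Pitx3 and -0.84 to 0.54 for En1 (above 0 without ad libitum replicate 3), -0.31 to 0.34 for Foxa1 and -0.070 to 0.45 for Lmx1b (below 0 without ad libitum replicate 1 or fasting replicate 2). The cause was not tested. Ratio differences of Nr4a2, Foxa2, En2, Lmx1a, Lmx1b and Foxa1 kept their sign under all 11 alternatives. That of Pitx3 was 0.051 and that of Otx2 0.20 with Slc6a3 alone, and that of En1 was -0.17 with Th alone. Leaving out 1 library gave -0.15 to 0.17 for En1, -0.33 to 0.30 for Otx2 and -0.69 to 0.066 for Sox6.

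Over all genes, 95 were called, against 1395 with DESeq2, 32 with limma-voom, 9 without robust shrinkage, 285 with the replicate block and 0 to 1187 when 1 library was left out. The highest count was without ad libitum replicate 1. Without fasting replicate 1 or 3 edgeR called 0 genes, with 2452 and 2495 at an unadjusted p below 0.05, and without ad libitum replicate 3 it called 1. Deviations of same-numbered libraries had correlations of 0.21, -0.04 and -0.11, against -0.14 to 0.19 for libraries of unlike number. The numbers thus gave no clear sign of pairing, but so few libraries cannot exclude it. By list, DESeq2 called 4 developmental, 2 immediate early, 1 serotonin, 1 subthalamic, 4 precursor, 2 astrocyte, 5 microglial and 5 oligodendrocyte genes. Its share over all genes was 7.26%. The immediate early count was 0 with limma-voom, without robust shrinkage and with the replicate block, and the block called 2 precursor and 3 oligodendrocyte genes. Leaving out 1 library gave 0 to 2 developmental, 0 to 2 immediate early, 0 to 1 ventral tegmental, 0 to 1 thalamic, 0 to 1 hypothalamic, 0 to 1 subthalamic, 0 to 3 precursor, 0 to 2 astrocyte, 0 to 5 microglial and 0 to 1 oligodendrocyte genes. The order of levels depended on the length used. Under fasting Nr4a2 had the highest mean with the mean length, the longest transcript or no length scaling. Ad libitum En1 led with the longest transcript, at 6.59 CPM per kb against 6.09 for Nr4a2, and Sox6 led with no length scaling, at 32.0 CPM against 21.7 for Nr4a2.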
